A study of Mus musculus with 2 samples.

Results

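The C-type lectin family genes of mouse adipose tissue were compared between a normal and a high fat diet. They are 50 genes, measured by 69 probe sets, out of 18193 genes with a probe set of their own on the array. Members were picked out by gene name, under a rule set with earlier results of these data known. Taken were probe sets whose only gene symbol begins with Clec followed by a number and a letter, or is Cd209a to Cd209g. Those whose only symbol begins with Klr and carries a number were taken too, except Klrb1c and Klrd1. Not every gene chosen this way encodes a receptor, since Clec3b and Clec11a encode secreted proteins and Clec16a an intracellular one.

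C57BL/6 mice, an inbred laboratory strain, received either the chow CE-2 (normal diet) or the high fat diet HFD32, given to induce obesity, between 6 and 18 weeks of age. Adipose tissue RNA from 3 animals was pooled for each diet and hybridised to 1 Affymetrix array per diet, so the study has 2 arrays and no replicates. The sources used here name neither the fat depot nor the sex of the animals. Below, the ND array is that of the normal diet and the HFD array that of the high fat diet. With a single array per diet the diets cannot be tested against each other. Differences are HFD minus ND values in log2 units, so that 1 stands for a 2-fold ratio. As a measure of error, differences of probe sets for the same gene had an SD of 0.27. It was taken over 5131 genes with several probe sets above the signal floor given below. All probe sets come from the same 2 arrays, so this SD leaves out the spread between animals, pools and arrays.

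C-type lectins share a protein fold that in many members binds sugars. In the immune system they serve as pattern receptors on macrophages and neutrophils, which recognise fungal and mycobacterial cell walls as well as products of damaged cells, as uptake receptors on dendritic cells and resident macrophages, and as activating or inhibitory receptors on natural killer (NK) cells. Activating myeloid members signal through the kinase Syk, either directly or through the adaptors encoded by Fcer1g and Tyrobp, whereas inhibitory members recruit phosphatases such as that encoded by Ptpn6. Macrophages accumulate in the fat of obese mice.

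The largest differences in the family lay in a group of myeloid genes of the Clec4a and Clec4b type and in Clec7a, all higher on the HFD array, while Clec2d was lower. These genes lie on chromosome 6. The 250 bases before the most upstream start of each in RefSeq (GRCm38.p6) are shown 5′ to 3′ on the gene's own strand, together with those of Clec4d, because these are the members on which the comparison turns. Only Clec7a was named by the rule for sequences, and the others were added after their values were seen. Capitals mark matches, on either strand, to the PU-box GAGGAA, a sequence bound by the myeloid factor PU.1.
Clec4a2, chr6:123122440-123122689, plus strand: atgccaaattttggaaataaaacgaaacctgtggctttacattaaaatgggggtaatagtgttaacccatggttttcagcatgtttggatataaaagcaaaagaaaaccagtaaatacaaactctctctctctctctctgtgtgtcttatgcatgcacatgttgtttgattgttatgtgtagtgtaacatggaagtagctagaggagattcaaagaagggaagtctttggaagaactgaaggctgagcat
Clec4b1, chr6:123049712-123049961, plus strand: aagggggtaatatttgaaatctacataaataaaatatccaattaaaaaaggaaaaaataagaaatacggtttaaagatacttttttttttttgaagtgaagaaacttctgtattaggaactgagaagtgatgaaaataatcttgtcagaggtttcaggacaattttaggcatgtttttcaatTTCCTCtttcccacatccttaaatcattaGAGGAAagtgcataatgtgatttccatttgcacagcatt
Clec4a3, chr6:122952265-122952514, plus strand: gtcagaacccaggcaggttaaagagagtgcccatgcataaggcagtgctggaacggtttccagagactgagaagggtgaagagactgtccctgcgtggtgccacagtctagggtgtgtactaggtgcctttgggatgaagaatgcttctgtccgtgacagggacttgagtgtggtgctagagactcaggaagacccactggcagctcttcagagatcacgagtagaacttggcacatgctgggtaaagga
Clec7a, chr6:129472786-129473035, minus strand: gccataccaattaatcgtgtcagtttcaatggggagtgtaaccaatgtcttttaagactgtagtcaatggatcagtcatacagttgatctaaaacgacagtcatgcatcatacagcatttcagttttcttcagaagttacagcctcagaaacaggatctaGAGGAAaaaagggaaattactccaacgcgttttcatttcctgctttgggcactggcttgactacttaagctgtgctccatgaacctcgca
Clec4d, chr6:123261857-123262106, plus strand: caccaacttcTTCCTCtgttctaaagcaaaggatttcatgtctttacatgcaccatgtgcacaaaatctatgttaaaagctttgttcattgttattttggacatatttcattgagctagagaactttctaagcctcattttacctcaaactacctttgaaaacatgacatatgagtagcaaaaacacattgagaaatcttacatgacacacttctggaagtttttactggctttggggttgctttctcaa
Clec2d, chr6:129180365-129180614, plus strand: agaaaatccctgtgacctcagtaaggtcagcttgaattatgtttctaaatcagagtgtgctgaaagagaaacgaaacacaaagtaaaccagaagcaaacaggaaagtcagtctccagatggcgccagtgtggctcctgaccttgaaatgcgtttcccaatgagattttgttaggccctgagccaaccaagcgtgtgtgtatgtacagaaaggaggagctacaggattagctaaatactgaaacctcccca

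A PU-box was found once in the windows of Clec7a and Clec4d and at 2 places in that of Clec4b1, at positions -68 and -39 from the start. The windows of Clec4a2, Clec4a3 and Clec2d held none. Of all 27025 promoters of this length, 23.1% held a PU-box, as did 19 of the 44 member promoters in the table. Matches to the pattern TTNNGNAA of C/EBP factors, found in 37.0% of all promoters, were present in Clec4d, Clec4a2 and Clec2d. The TATAAA box was found in Clec4a2 (12.98% of all promoters) and the AP-1 pattern TGANTCA in none of the 6 (6.85% of all promoters). The windows were 43.4% to 50.0% identical in pairwise global alignment, and the related genes Clec4a2, Clec4a3 and Clec4b1 lay within that range, at 47.2%, 46.5% and 45.0% for their 3 pairs. A match in these letters is a description and not evidence of binding.

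A gene was represented by its brightest probe set and counted as measured above the floor when its mean over both arrays reached 5.44, which is the median over the probe sets other than controls. Of the 50 members, 21 passed this floor and 29 did not. Background was set at the 95th percentile of 83 probe sets for sensory receptor genes, 4.92 on the ND array and 4.95 on the HFD array. In all, 26 members were above background on both arrays, 3 on the HFD array only, 1 on the ND array only and 20 on neither. Of all 18193 genes, 11778 passed the floor and 4932 were below background on both arrays. Clec4f passed the floor through its high fat diet value, and the other 20 members above it were above it on both arrays.

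Among the 21 members above the floor, 15 were higher on the HFD array, 5 were lower and Clec4n had the same value on both. A difference above 0 was found for 49.9% of all genes above the floor. The median difference of these members was 0.24, and that of all genes above the floor was 0.00. A ratio of 2-fold or more was found upward in 4 members, against 3.28% of all genes above the floor, and downward in 1, against 3.29%. The 4 are Clec7a and the close relatives Clec4a2, Clec4a3 and Clec4b1. Probes can take up transcripts of more than 1 of these relatives, so they may not be separate counts. Without a floor, 35 of the 50 members were higher, 13 lower and 2 equal, against 53.0% of all genes higher, and the median was 0.22 against 0.03. At least 2-fold higher were then 5 members (2.63% of all genes) and 1 was at least 2-fold lower (3.06%).

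**Figure D1:**
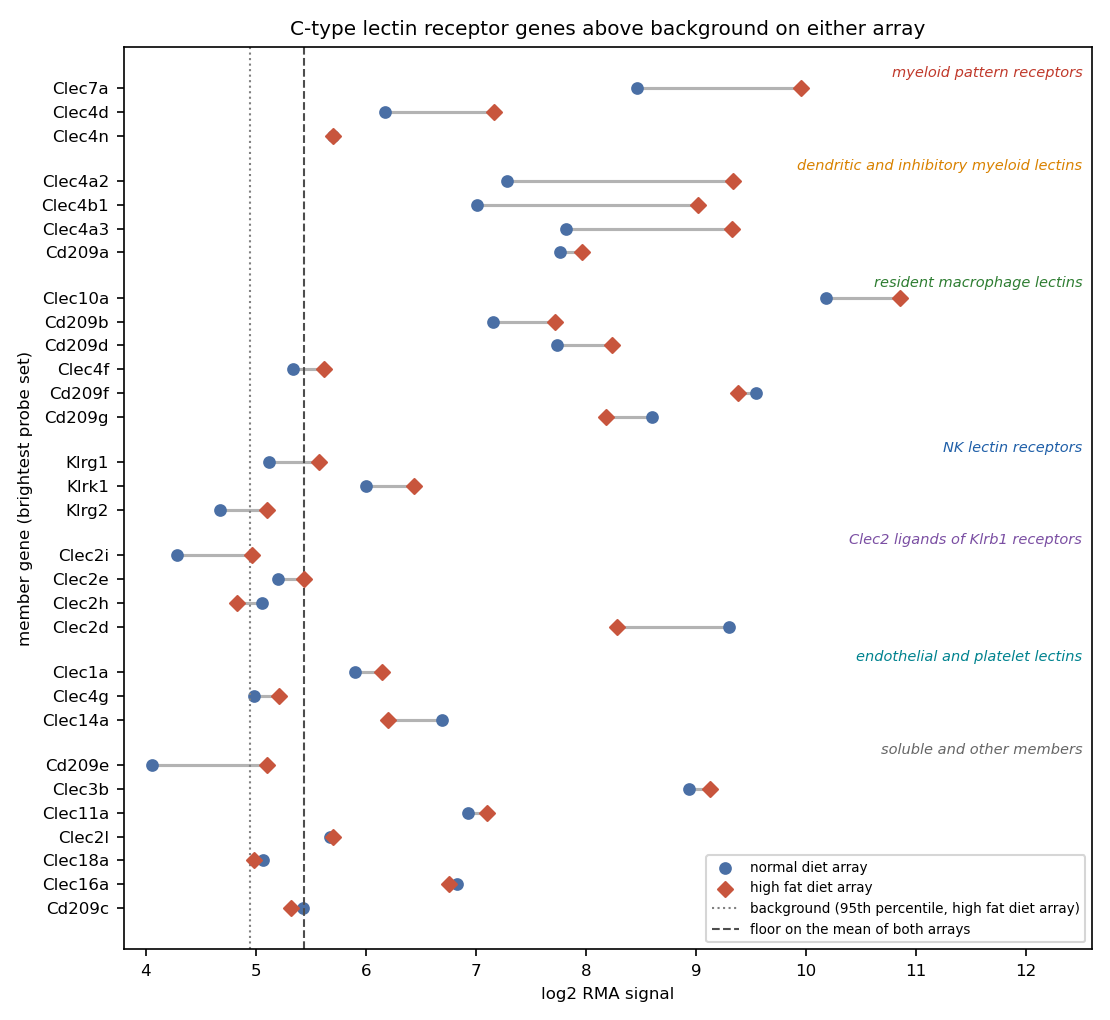
Log2 RMA signal on the ND array (circles) and the HFD array (diamonds) for the 30 member genes above background on at least 1 array, grouped by role, with 1 array per diet. The longest bars belong to Clec4a2, Clec4b1, Clec4a3 and Clec7a, and Clec2d runs the other way, from 9.30 to 8.29. The bar of Cd209e starts below background, at 4.06, and ends at 5.10.

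Clec7a encodes Dectin-1, the receptor for fungal beta-glucan, and led the myeloid pattern receptors. Its signal was 8.46 on the ND array and 9.96 on the HFD array, 2.82-fold higher, which put its difference at rank 150 of 11778 genes above the floor, counted from the highest. Clec4d, the Dectin-3 receptor that associates with Mincle, had 6.18 and 7.17, a ratio of 1.99 that falls just short of 2-fold. Clec4d was measured by a single probe set of a type that can match several transcripts.

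The other pattern receptors did not share that difference above background. Clec4n, which encodes the mannan receptor Dectin-2, had 5.70 on both arrays, and its dimmer probe set had 5.04 and 4.64. Clec4e, the gene of Mincle, had 3.28 and 3.84, below background on both arrays. Clec5a, a receptor that signals through the adaptor encoded by Tyrobp, had 4.47 and 4.79, also below background on both. No fold is given for Clec4e and Clec5a. The median difference of the myeloid pattern receptors over the 3 genes above the floor was that of Clec4d, 0.99.

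The group of dendritic and inhibitory myeloid lectins held the largest differences of the family. Clec4a2, which encodes the inhibitory dendritic cell receptor DCIR, had 7.29 on the ND array and 9.34 on the HFD array, 4.14-fold higher and at rank 78. Clec4b1, the gene of the related receptor DCAR, which activates cells through the Fc receptor gamma chain and is not inhibitory, had 7.01 and 9.02, 4.02-fold higher and at rank 81. Clec4a3, another gene of the DCIR group, had 7.82 and 9.33, 2.85-fold higher and at rank 149. All 3 were above background on both arrays.

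These 3 genes are close relatives, and probes can take up transcripts of more than 1 of them. The second probe set of Clec4a2 had 5.55 and 6.34, a difference of 0.79 against 2.05 on the brighter one. This gap of 1.26 exceeds 0.70, the 95th percentile of such gaps over 3105 genes with 2 probe sets above the floor. A further probe set annotated to both Clec4b1 and Clec4a2, and so no member, had 8.38 and 10.18, a difference of 1.80. Clec4a3 and Clec4b1 had 1 probe set each. All 5 probe sets were higher on the HFD array, but how the signal divides among the relatives cannot be read from them.

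Cd209a, the gene of mouse DC-SIGN on dendritic cells, did not share the difference of its group. It had 7.76 and 7.97, a difference of 0.21 that is smaller than the SD between probe sets. Clec12b, an inhibitory receptor gene, was below background on both arrays, at 3.47 and 3.71. The median of the group was 1.76 over 4 genes above the floor and 1.51 over all 5. Clec9a, the receptor of cross-presenting dendritic cells, Clec12a, Clec4a1, Clec4a4 and Clec4b2 have no probe set with that symbol alone and were not analysed here.

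**Figure D2:**
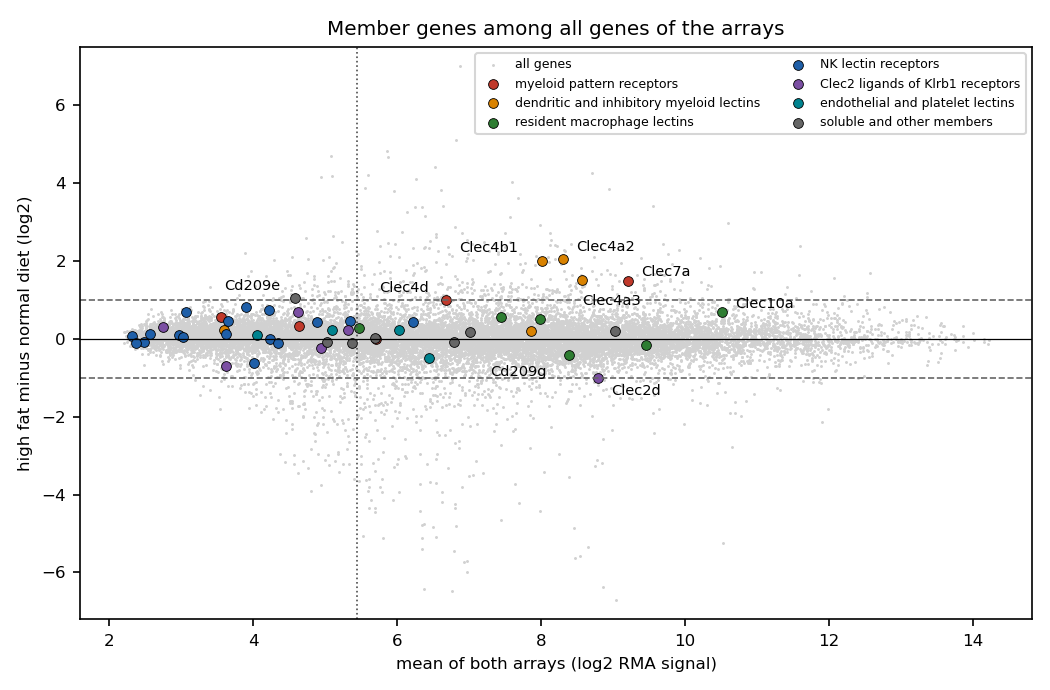
High fat minus normal diet difference (log2) against the mean of both arrays (log2 RMA signal) for all genes (grey) and the 50 members (coloured by role); dashed lines mark 2-fold and the dotted line the floor of 5.44. Clec4a2, Clec4b1, Clec4a3 and Clec7a lie above the upper dashed line, as does Cd209e, left of the floor. Clec4d lies just under that line and Clec2d at the lower one, while most NK lectin receptors lie left of the floor.

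The Clec4 genes of myeloid cells are neighbours on chromosome 6. In the RefSeq order of the Clec4 cluster, Clec4a3, Clec4b1 and Clec4a2 come before Clec4n and Clec4d, and their differences in that order were 1.51, 2.01, 2.05, 0.00 and 0.99. Clec4e, which follows them, was below background on both arrays. In the Dectin-1 cluster, taken here as the genes with family names from Clec12a to Clec7a, Clec7a had 1.50. Clec1a, before it, had 0.24, and the other measured genes there, Clec12b and Clec1b, were below background on both arrays.

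Lectins of resident macrophages were all above background and stayed within 2-fold in both directions. Clec10a, the galactose-binding receptor MGL1, had 10.18 and 10.86, a difference of 0.68. Cd209b, which encodes the marginal zone macrophage receptor SIGNR1, had 7.16 and 7.72, and its second probe set, at 0.49, was close to the 0.56 of the first. Cd209d had 7.74 and 8.24, a difference of 0.50.

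Cd209f and Cd209g pointed the other way. Cd209f had 9.55 and 9.38, a difference of -0.16 within the SD between probe sets. Cd209g had 8.60 and 8.18, a difference of -0.42. Clec4f, the receptor of Kupffer cells in the liver, had 5.34 and 5.62, close to background on both arrays. Over these 6 genes, 4 were higher and 2 lower, 0 of them by 2-fold or more, with a median of 0.39. The median of the myeloid pattern receptors exceeded that of all other members above the floor by 0.77, a value that ran from 0.37 with no floor to 1.28 without probe sets of the types that cross-match transcripts, and the dendritic and inhibitory group stood higher than both. With 1 array per diet, differences between these groups were not tested.

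NK lectin receptors were dim. Of 17 members beginning with Klr, 14 were below background on both arrays, among them all 7 measured genes of the Ly49 family (Klra), the NKG2A gene Klrc1 and the NKR-P1 genes Klrb1a, Klrb1b and Klrb1f. Klrk1, the gene of the activating receptor NKG2D, had 6.01 and 6.43, a difference of 0.43, and it was the only one above the floor. Klrg1, an inhibitory receptor of mature NK and T cells, had 5.12 and 5.58. Klrg2 had 4.67 and 5.10, a bound of at least 1.13-fold higher because the normal diet value was below background. The 5 probe sets of Klrb1b were all below background on both arrays. No direction is read from the 14 genes below background. Among all 18193 genes, 4932 were below background on both arrays.

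Clec2d encodes Clr-b, a widely expressed surface protein that NK cells read through the inhibitory receptor encoded by Klrb1b. It had 9.30 on the ND array and 8.29 on the HFD array, 2.02-fold lower, and was the 1 member past 2-fold in that direction. Its single probe set placed it at rank 11399 of 11778. The related Clec2 genes were near or below background. Clec2e had 5.20 and 5.44, Clec2h 5.06 and 4.83, and Clec2i 4.29 and 4.97, while Clec2g and Clec2m were below background on both arrays.

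Endothelial and platelet members stayed within 2-fold, as did most genes. Clec14a, a surface protein of endothelial cells, had 6.69 and 6.20, a difference of -0.49 that exceeds the SD between probe sets. On its dimmer probe set the difference was -0.25, within that SD. Clec1a, also expressed by endothelium, had 5.91 and 6.14. Clec1b, the podoplanin receptor CLEC-2 of platelets, was below background on both arrays. Clec4g, the lectin of liver sinusoidal endothelium, had 4.98 and 5.21 on one probe set and 5.25 and 4.64 on the other, so that its direction is not settled.

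Among the remaining members, those above the floor differed by -0.08 to 0.19. Clec3b, the gene of the secreted plasminogen-binding protein tetranectin, had 8.94 and 9.13. Clec11a, a secreted growth factor of bone and blood precursors, had 6.93 and 7.10, and Clec16a, which acts in endosomal and mitochondrial turnover, had 6.83 and 6.75. Clec2l had 5.68 and 5.70, Clec18a 5.06 and 4.98 and Cd209c 5.43 and 5.32. Cd209e had 4.06 and 5.10, so that its difference of 1.05, the fifth past 2-fold when no floor is set, amounts to at least 1.13-fold once the normal diet value is raised to background.

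**Figure D3:**
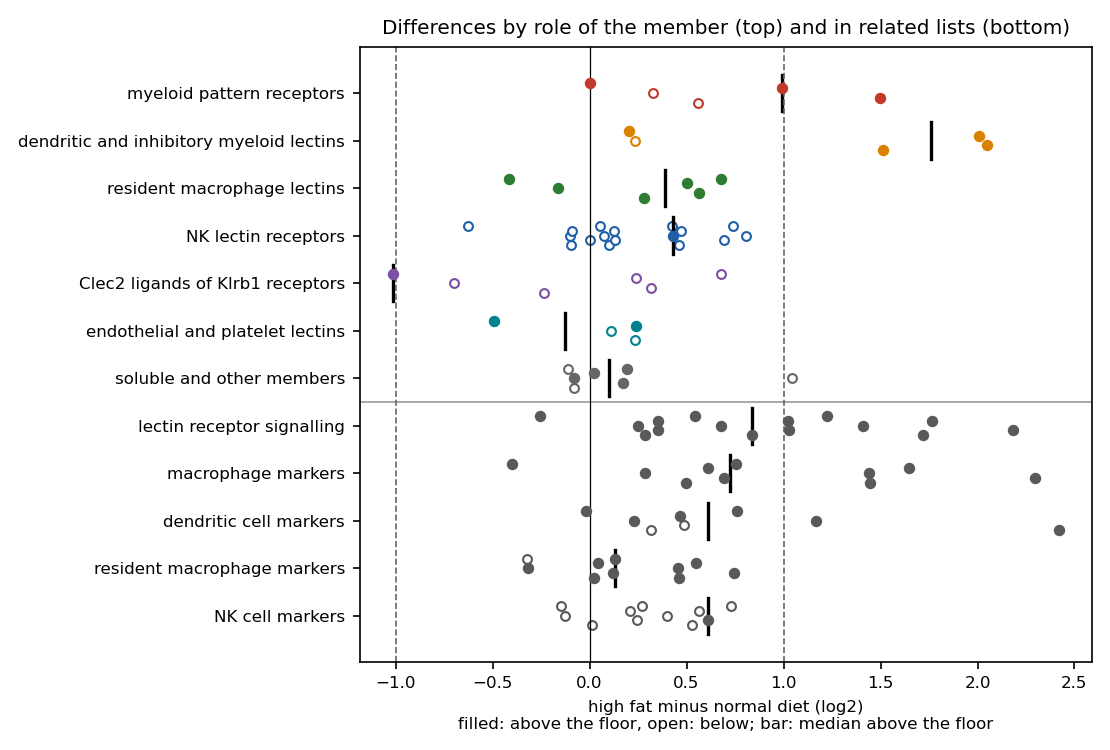
High fat minus normal diet difference (log2) of each member by role (top) and of each gene in lists of signalling genes and cell markers (bottom); filled points are above the floor, open points below it, black bars are medians above the floor and dashed lines mark 2-fold. The dendritic and inhibitory group has the highest bar, at 1.76, and that of the resident macrophage group is at 0.39.

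Genes that carry the signals of these receptors had a median difference of 0.84. Of 15 measured ones, 14 were higher on the HFD array, against 49.9% of all genes above the floor. At least 2-fold higher were 7 of them, against 3.28%. Whether these differences relate to lectin signalling was not tested. Fcer1g, the adaptor of Dectin-2, Mincle and DCAR, had 9.40 and 10.43, 2.04-fold higher. Tyrobp had 10.11 and 11.83, 3.29-fold higher. Syk, the kinase that activating members share, had 7.57 and 8.79, 2.33-fold higher. The adaptors Lat2 (2.18) and Blnk (1.77) had the largest differences of the list. On the inhibitory side the phosphatase genes Inpp5d, Ptpn6 and Ptpn11 differed by 1.02, 0.35 and -0.26. Inpp5d and Ptpn6 were named outside the rule. Card9 and Lyn were not analysed here.

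C-type lectin receptors with other names went both ways, with 6 higher and 2 lower of 9 above the floor and a median of 0.09. Mrc2, the collagen uptake receptor of fibroblasts, had 6.15 and 8.40, 4.75-fold higher. Cd72, an inhibitory receptor of B cells, had 5.30 and 6.77, 2.76-fold higher, and passed the floor only through its HFD value. Mrc1, the mannose receptor, differed by 0.46. Thbd, the anticoagulant receptor thrombomodulin, had 11.77 and 9.78, 3.97-fold lower.

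Markers of cell types differed between the arrays as well, and their part in the differences above was not tested. In tissue RNA, more cells of a type and more RNA per cell cannot be told apart. Of 10 macrophage markers, 9 were higher, 4 of these by 2-fold or more, against 49.9% and 3.28% of all genes above the floor. The median of the macrophage markers was 0.72, and their summed linear signal was 12363 on the ND array and 21543 on the HFD array. Cd68 (4.91-fold) and Adgre1 (3.13-fold) had the largest differences of the list, and Mertk was lower (-0.40). The others were Itgam (2.72-fold higher), Fcgr1 (2.71), Ptprc (1.68), Lyz2 (1.62), Csf1r (1.53), Aif1 (1.41) and Cd14 (1.22). Except Itgam, these others were named outside the rule. Clec4a2 was 4.14-fold and Clec7a 2.82-fold higher. Of 10 resident macrophage markers, 9 were above the floor, 8 of them higher and 1 lower, 0 by 2-fold or more, with a median of 0.13. Marco, among the higher ones, passed the floor only through its HFD value. Timd4 (-0.32), above background on both arrays, was left out by the floor. With no floor, 8 of the 10 were higher and 2 lower, and the median was 0.13 as well. The summed linear signals of the 10 markers were 7294 and 8415.

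The 6 dendritic cell markers above the floor had a median of 0.61, led by Itgax (2.42), which macrophages of obese fat express too, with Zbtb46 at -0.02. The other markers above the floor differed by 1.17 (Irf8), 0.76 (Ciita), 0.46 (Batf3) and 0.23 (Flt3). Summed over all 8 measured markers, Itgax among them, the linear signals were 653 and 1517. Xcr1, a defining marker of cross-presenting dendritic cells, was below background on both arrays. Of 11 measured NK cell markers, 6 were below background on both arrays, including the defining marker Ncr1 (3.93 and 4.13), and Klrd1 alone was above the floor, at 5.86 and 6.47. Their summed linear signals were 286 and 370.

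Of 8 endothelial markers, 7 were lower, with a median of -0.61 and summed linear signals of 2666 and 1771. Stab2 (4.91 and 5.98) went the other way, at least 2.09-fold higher, and passed the floor only through its HFD value. Of the endothelial members above the floor, Clec14a was lower (-0.49) and Clec1a higher (0.24). Of 12 hepatocyte markers, 12 were lower by 2-fold or more, with summed linear signals of 30961 and 591. On the HFD array 6 of them were below background, and with those values raised to it the list's median was -5.14. The liver-associated members Clec4f and Clec4g had signals between 4.64 and 5.62 over all their probe sets and both arrays. Markers of T cells, B cells and platelets had medians of -0.12, -0.45 and 0.02 over 4, 3 and 5 genes above the floor. The 5 monocyte and neutrophil markers above it split, with S100a8 (2.11) and Fcgr4 (1.90) at least 2-fold higher, Ccr2 at 0.93, and Plac8 (-1.53) and S100a9 (at least 2.80-fold lower) in the other direction, and Fcgr4 passed the floor only through its HFD value. Adipocyte markers, read as a check of the tissue label, were far above background on both arrays, with Adipoq at 14.21 and 14.12 and a list median of -0.09 over 7 genes.

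**Figure D4:**
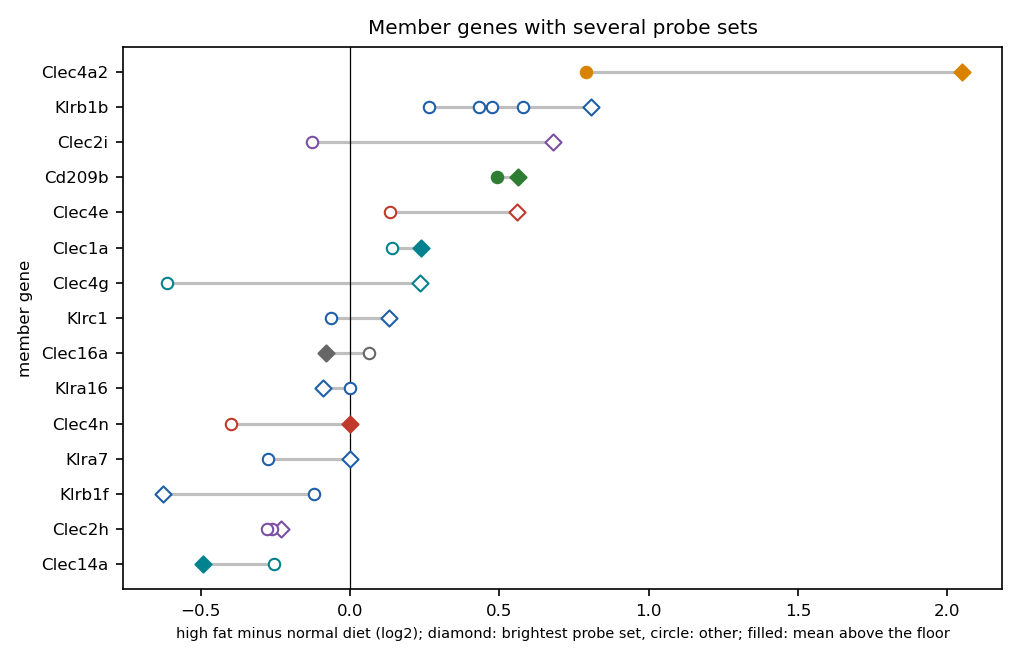
High fat minus normal diet difference (log2) of every probe set for the 15 member genes that have several; diamonds are the brightest probe set, circles the others, and filled symbols have a mean above the floor. Clec4a2 has the widest gap, from 0.79 to 2.05, and for Clec2i, Clec4g, Clec16a and Klrc1 the probe sets lie on both sides of 0.

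Of the 15 members with several probe sets, 8 had all of them on the same side of 0. The others were Clec2i, Clec4g, Clec16a and Klrc1, whose probe sets pointed in opposite directions, and Clec4n, Klra7 and Klra16, which each had a probe set with the same value on both arrays. Of these 7 genes, Clec4n and Clec16a were above the floor.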

How the data were processed

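RNA from adipose tissue of mice on 2 diets was measured on 2 arrays, 1 per diet, each of a pool of 3 animals. The authors deposited log2 signals made with RMA, per the submitters' processing notes, in a version the sources used here do not name. RMA corrects background, normalizes across arrays and summarises probes into probe sets. That the scale is log2 follows from the range of the values, 2.04 to 14.28. RMA makes the distributions of arrays alike and compresses differences at dim and bright signals.

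Gene names came from GEO's annotation of the platform. Of 45101 probe sets, 34958 had 1 symbol, 932 several and 9211 none, and 64 controls were left out. The Entrez IDs of all 50 members were found in the RefSeq table (GRCm38.p6), which changed 0 symbols. The RefSeq promoter table held 44 members. Values were analysed with Python 3.11.15 and pandas 2.3.3, and the gene summary was checked on simulated data. A ratio is written "at least" where 1 array lay below background and was raised to it.

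Named were all members above background on at least 1 array, up to 4 genes of each related list (3 in the direction of its median and 1 opposite, by size), and Fcer1g, Tyrobp, Syk and Card9. Cell markers came from lists. Members and lists were chosen with earlier results of these data known. With 1 array per diet no test was run, and the number of arrays limits the precision. Alternatives changed the probe set, the floor, dim signals and the centring.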

Additional observations from a re-analysis of the deposited data

How the results depend on the processing

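The counts of members past 2-fold, 4 higher and 1 lower, were the same under all alternatives but the removal of the floor, which gave 5 and 1. The medians of the resident macrophage lectins stayed between 0.17 and 0.39. The median of the myeloid pattern receptors, 0.99, was 1.50 both without probe sets of the types that cross-match transcripts and with the floor at the 75th percentile (7.60), each leaving Clec7a alone, and 0.56 with no floor, the difference of Clec4e, which lay below background. Its excess over the other members, 0.77, was 1.28, 1.14 and 0.37 in the same order, and 1.05 when a gene was the median over its probe sets. That last setting put the dendritic and inhibitory group at 1.47 in place of 1.76 and Clec4a2 at 1.42 in place of 2.05. The NK lectin receptors, 0.43 for Klrk1 alone, had 0.12 with no floor, mostly over genes below background, and no value without cross-matching probe sets or with the higher floor. Moving Clec12a into the myeloid pattern receptors could not be run, since that gene was not analysed here. Centring on the running median gave 0.97 for the myeloid pattern receptors and moved the other medians less. No paired analysis was possible because each diet has 1 array. Signals near background limit what can be read for 20 of the 50 members.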

Other observations

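Probe sets annotated to several genes of the family were no members. The one shared by the Ly49 genes Klra9 and Klra3 had 5.67 on the ND array and 6.21 on the HFD array, above background on both, whereas each Ly49 gene with a probe set of its own was below background on both. The one shared by the NKR-P1 genes Klrb1b and Klrb1c had 5.02 and 5.80, also above background, whereas the 5 probe sets of Klrb1b alone were below it. The one shared by Klrc3 and Klrc2 had 3.33 and 3.39, and that shared by Klra22 and Klra1 had 2.59 and 2.44, all below background.

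Among C-type lectin receptors outside the family names, Asgr1, the hepatocyte asialoglycoprotein receptor, had 5.70 and 3.38, at least 1.68-fold lower. The hepatocyte markers were lower too, by a median of -5.14 with values below background raised to it. Olr1, the oxidised lipoprotein receptor LOX-1, had 3.10 and 4.84, below background on both arrays. Both were named after their values were seen.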
